A study of Saccharomyces cerevisiae with 27 samples.

Results

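The genes described here are 46 budding yeast (Saccharomyces cerevisiae) genes for building ribosomes, taken by name from the 5995 genes of the expression tables. They are genes for box C/D and box H/ACA small nucleolar ribonucleoproteins, for RNA polymerase I, for the assembly of the small and the large ribosomal subunit, and for DEAD-box helicases (3, 4, 6, 11, 17 and 5 genes in that order). All 46 names were found in the tables, and all 46 passed the filter on low counts. The RNA came from 3 strains of one background, each grown on glucose, galactose or a mixture of ethanol and glycerol, with 3 libraries for each of the 9 combinations. BY4741 is the laboratory strain with the markers his3Δ1, leu2Δ0, met15Δ0 and ura3Δ0, which all 3 strains share. LCY001 is BY4741 with a centromeric HIS3 construct, labelled CEN-HIS3. LCY002 carries CEN-HIS3 together with an array of 40 genes. The array genes are also present at their native chromosomal places, and the 2 sources of their transcripts were not separated here; none of the 46 genes lies on the array. Cultures came from individual colonies and spent a night in medium without histidine before dilution into the 3 carbon sources, per the labels. The same overnight medium is given for BY4741, which lacks a working HIS3, and the sources used here do not say whether the final cultures held histidine. LCY001 against BY4741 therefore differs in the construct and in histidine synthesis together. Nothing beyond the separate colonies says how independent the libraries of a group are, so the tests measure the spread between these libraries.

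A yeast cell makes a ribosome by transcribing a long precursor RNA from the ribosomal DNA with RNA polymerase I and then modifying, folding and cutting it in the nucleolus. Box C/D particles guide ribose methylation and box H/ACA particles guide pseudouridylation of that RNA. The small subunit processome assembles on the nascent transcript, later factors build the large subunit, and DEAD-box helicases rearrange the RNA along the way. In this yeast the genes for these factors are known as the Ribi regulon, which is expressed strongly in fast growth and repressed when nutrients or growth signals fall. Many of its promoters hold a PAC element, the binding site of the repressors Dot6 and Tod6, and an RRPE element, the binding site of Stb3.

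The promoters are shown first because elements known from promoters of this regulon were found in many of them. Of the 46, however, 13 held neither in its full spelling. In the R64 genome, windows from 250 bases before to 50 bases after each annotated start codon were searched on both strands for PAC, spelled GCGATGAG, and RRPE, spelled AAATTTTC. PAC was present in 23 of the 46 windows (50%), against 236 of the 6001 windows of all annotated genes (3.93%). RRPE was present in 24 (52.2%), against 8.17% of all windows. Both were present in 14 (30.4%), against 1.25%, and at least one in 33 (71.7%), against 10.8%. The shorter PAC core GATGAG, which lies inside PAC, was in 42 of the 46 windows against 20.4% of all, and the RRPE core AAAATTTT, which overlaps RRPE, was in 37 against 9.03%. Divergent genes can share a window, so windows are not independent. The stretches below run 5′ to 3′ on the strand of the gene, from 200 to 81 bases before the start codon, where 21 of the 23 genes with PAC and 21 of the 24 with RRPE have a match; capitals mark PAC and RRPE matches on either strand, a PAC read from the other strand appearing as CTCATCGC. The first 6 are genes with both elements, from NSR1, the yeast nucleolin, through large-subunit factors to the polymerase subunit RPA49. RSA4 holds PAC alone, NOP56 holds RRPE alone, and NOP1 and RPA190 hold neither in the full spelling. The whole windows of RSA4, NOP56, NOP1 and RPA190 do hold both cores. BMT6 is shown as 30 bases nearer its start codon, since its one PAC lies there and since its transcript behaved unlike the others.
NSR1, chrVII:807737-807856, minus strand: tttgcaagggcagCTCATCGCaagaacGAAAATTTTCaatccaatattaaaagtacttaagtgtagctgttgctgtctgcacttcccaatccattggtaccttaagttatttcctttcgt
NOP2, chrXIV:510340-510459, plus strand: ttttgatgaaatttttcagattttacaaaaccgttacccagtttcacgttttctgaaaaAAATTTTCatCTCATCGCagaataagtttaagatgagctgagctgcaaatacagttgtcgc
NUG1, chrV:162523-162642, plus strand: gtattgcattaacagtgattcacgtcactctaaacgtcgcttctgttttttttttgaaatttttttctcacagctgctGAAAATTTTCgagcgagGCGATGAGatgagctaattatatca
NOP7, chrVII:695217-695336, plus strand: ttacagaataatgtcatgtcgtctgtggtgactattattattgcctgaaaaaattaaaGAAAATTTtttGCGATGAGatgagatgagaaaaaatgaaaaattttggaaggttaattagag
YTM1, chrXV:832613-832732, plus strand: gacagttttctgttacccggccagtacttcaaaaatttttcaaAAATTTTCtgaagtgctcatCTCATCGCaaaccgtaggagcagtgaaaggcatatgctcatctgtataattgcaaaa
RPA49, chrXIV:182689-182808, minus strand: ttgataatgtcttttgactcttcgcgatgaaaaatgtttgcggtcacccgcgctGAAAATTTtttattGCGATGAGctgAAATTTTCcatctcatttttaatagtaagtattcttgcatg
RSA4, chrIII:242433-242552, minus strand: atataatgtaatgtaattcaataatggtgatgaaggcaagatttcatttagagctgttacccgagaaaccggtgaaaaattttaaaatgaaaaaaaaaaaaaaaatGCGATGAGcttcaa
NOP56, chrXII:545897-546016, plus strand: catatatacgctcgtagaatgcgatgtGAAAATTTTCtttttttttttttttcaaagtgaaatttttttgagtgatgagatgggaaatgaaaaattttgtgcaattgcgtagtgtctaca
NOP1, chrIV:427164-427283, plus strand: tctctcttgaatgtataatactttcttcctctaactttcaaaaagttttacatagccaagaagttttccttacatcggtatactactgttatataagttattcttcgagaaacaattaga
RPA190, chrXV:960787-960906, plus strand: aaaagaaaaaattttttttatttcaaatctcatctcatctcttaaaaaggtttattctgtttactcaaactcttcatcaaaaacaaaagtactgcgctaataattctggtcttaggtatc
BMT6, chrXII:264111-264140, plus strand: gaattagagtacatCTCATCGCagggtctc

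In the stretches with both elements, PAC and RRPE lay close together, with RRPE upstream of PAC in NOP2, NUG1, NOP7 and YTM1, downstream of it in NSR1, and on both sides of it in RPA49. In their full spelling the elements were spread unevenly over the roles. PAC was found in 12 of 17 large-subunit genes, 7 of 11 small-subunit genes and 3 of 5 helicase genes, in 1 of 6 polymerase genes, and in none of the 3 box C/D and 4 box H/ACA genes. The shorter PAC core GATGAG was nevertheless present in all box C/D and box H/ACA genes, and in all polymerase genes except RPA12. Over the 46 windows PAC matches began at positions from -187 to 5 relative to the start codon, with a median of -121.0. RRPE matches had a median position of -141.5. A match in letters is a description of the window and not a measurement of binding.

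**Figure D1:**
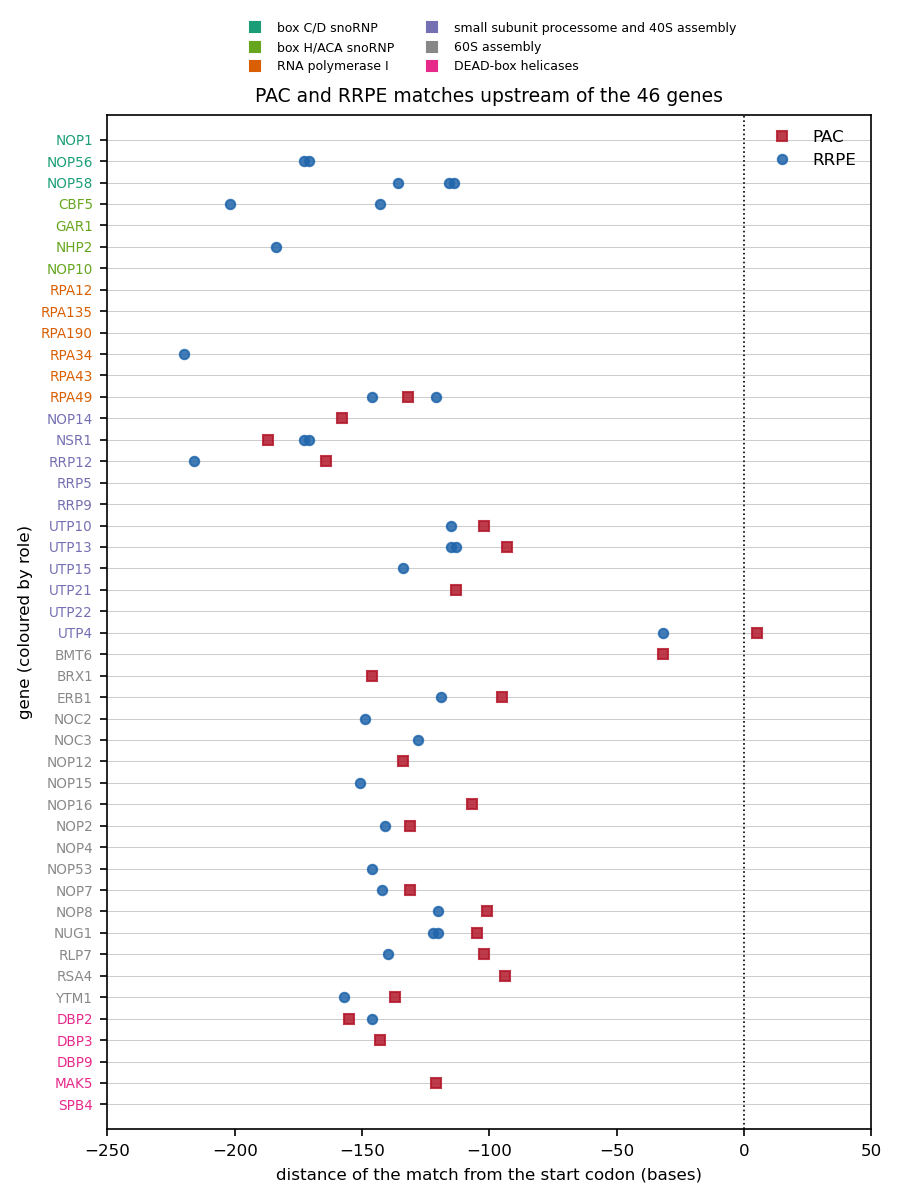
Positions of PAC (squares) and RRPE (circles) matches in the windows of the 46 genes, as bases from the start codon (dotted line), with genes grouped and coloured by role. Matches gather between 200 and 81 bases before the start codon in the small- and large-subunit genes, while UTP4 and BMT6 have their PAC at or near the start codon.

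Depth was close to even, at 14484847 to 16219263 counts per library, and the members had 155 to 19986 counts per library, far above the 3 counts taken as the limit of detection (0.207 CPM, counts scaled to library size, in the smallest library). The labels held: HIS3 stood at 37.6 ± 2.15 CPM (SD, n = 3) in BY4741, 1496 ± 26.3 in LCY001 and 507 ± 18.9 in LCY002 on glucose. GAL1 had group means of 8791 to 14917 CPM on galactose and of 9.84 to 47.8 CPM elsewhere, and ICL1, of the glyoxylate cycle, had 2442 to 3505 CPM on ethanol/glycerol and 32.3 to 66.7 CPM elsewhere. LEU2, URA3 and MET17 were at 0 counts in all libraries. A pair of libraries stood apart from their partners. The third BY4741 library on ethanol/glycerol differed from them with a chi-square of 19.1 and 16.3 per degree of freedom, against 8.11 between those partners. The second LCY001 library on galactose differed with 16.3 and 20.4, against 5.63 between its partners. For the main results that rest on either, counts or medians are also given without it.

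The 46 genes together took their largest share of the counts in BY4741 on glucose and their smallest in LCY002 on ethanol/glycerol. In the 3 libraries of BY4741 on glucose the share was 1.87%, 1.77% and 1.84%, in LCY001 1.36%, 1.42% and 1.42%, and in LCY002 1.65%, 1.63% and 1.56%. On glucose the 3 strains did not overlap, with LCY001 lowest and LCY002 between the others. On galactose the mean shares were 1.36% ± 0.0138 in BY4741, 1.51% ± 0.0666 in LCY001 and 1.27% ± 0.0379 in LCY002 (SD, n = 3 each), so that LCY001 was here the highest strain. Its libraries held 1.56%, 1.43% and 1.53%, the second being the other library that stands apart. On ethanol/glycerol the libraries of BY4741 held 1.02%, 1.03% and 1.22%, the last being one of the libraries that stand apart. LCY001 held 1.2% ± 0.0761 and LCY002 0.846% ± 0.0429 on that carbon source. In bulk RNA, fewer cells expressing a gene and less of its RNA per cell cannot be told apart.

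**Figure D2:**
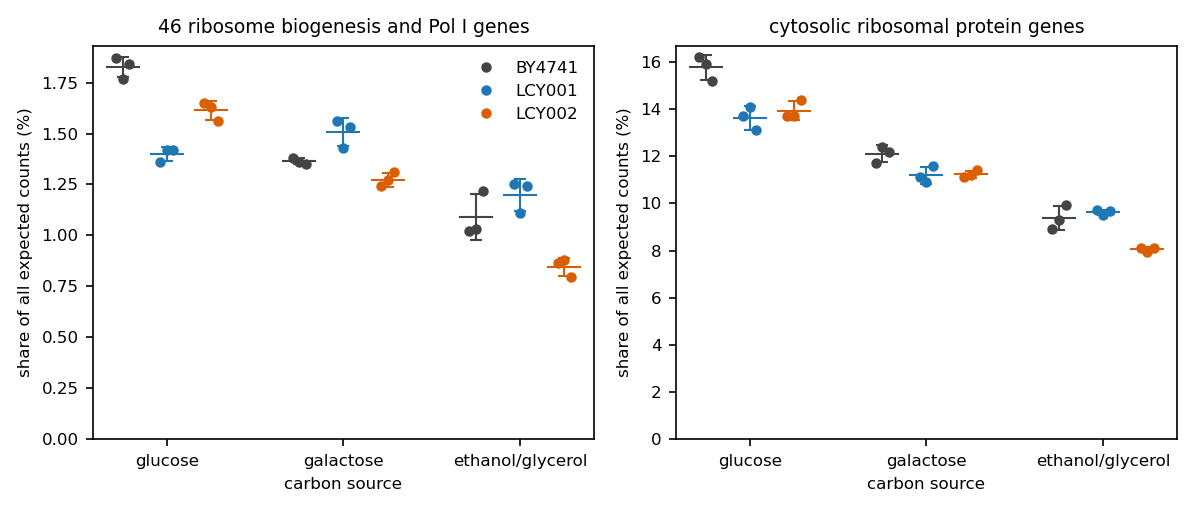
Share of all counts (percent, vertical axis) taken by the 46 genes (left) and by cytosolic ribosomal protein genes (right) in each of the 27 libraries, by strain and carbon source; points are libraries, horizontal bars are group means and whiskers are SD. On the left, BY4741 on glucose lies highest at a mean of 1.83%, and LCY002 on ethanol/glycerol lowest at 0.846%.

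Gene by gene, most members had the same highest and lowest groups as the summed share. Of the 46 genes, 42 had their highest group mean in BY4741 on glucose and 44 their lowest in LCY002 on ethanol/glycerol. The highest group mean was 1.56 times the lowest for NOP16, a large-subunit factor, 2.32 times for the median gene and 3.83 times for RPA12, the polymerase subunit involved in RNA cleavage. Per length, the most abundant transcript was NHP2, a core protein of the box H/ACA particles, at 782 FPKM (fragments per length of transcript and depth of library) averaged over the 27 libraries. NSR1 followed at 679 FPKM, and the box C/D scaffold NOP56 was at 571 FPKM. The highest of their roles were the helicase DBP2 at 430 FPKM, the large-subunit factor BRX1 at 402 FPKM and RPA34, a polymerase subunit, at 257 FPKM. BMT6, a methyltransferase that acts on the large-subunit RNA, was lowest of all at 26.1 FPKM.

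The members moved together over the 9 groups, with one exception. Across the 9 group means the correlation of a member's log2 CPM with the mean of the other members was at least 0.83 for 45 of the 46 and 0.32 for BMT6, and the median over pairs of members was 0.94. These points share strains, media and scaling, and the values are descriptions. Outside the list, the genes whose pattern was most like that of NSR1 over the 9 means were URB2 at r = 0.994, RIX7 at 0.993, EFM2 at 0.992, and RAI1 and IMP4 at 0.99. For RPA190, the largest polymerase I subunit, they were KAP123 at 0.993, UTP20 and RRB1 at 0.988, MTR4 at 0.987 and TMA46 at 0.986.

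**Figure D3:**
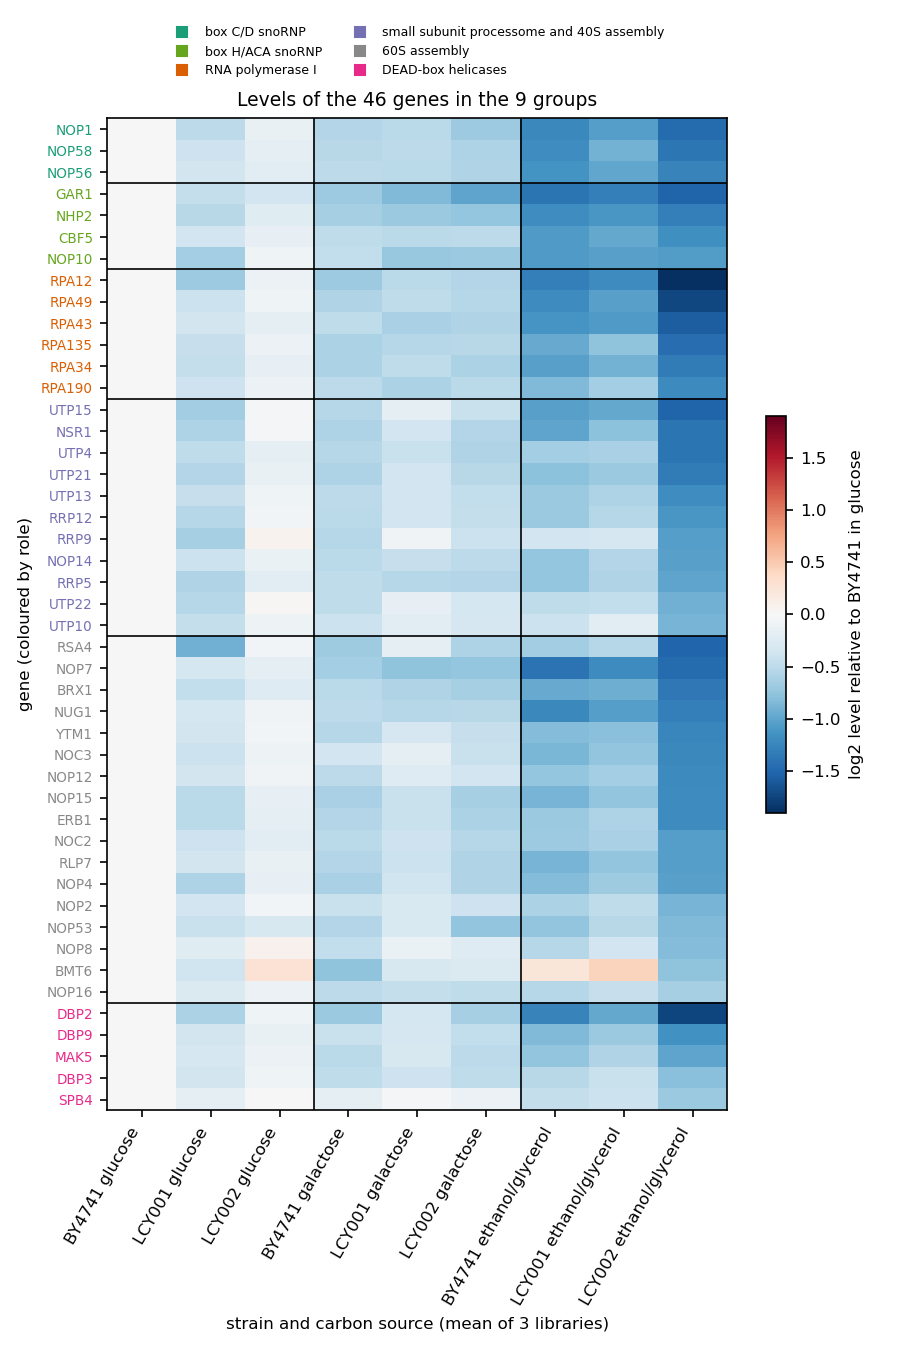
Heat map of log2 CPM of each of the 46 genes (rows, coloured by role) in each of the 9 groups (columns, means of 3 libraries), relative to BY4741 on glucose; blue is lower and red is higher. Nearly every row darkens from glucose to ethanol/glycerol and is darkest in LCY002 on ethanol/glycerol, while BMT6 is pale red on ethanol/glycerol in BY4741 and LCY001.

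BY4741 shows how these genes responded to the carbon source without a plasmid. All 46 were lower on galactose than on glucose and 45 were lower on ethanol/glycerol, the former by a median of 0.52 and the latter by a median of 0.83 on the log2 scale. The medians over all tested genes were 0.01 and 0.05. By edgeR's quasi-likelihood test with a Benjamini-Hochberg adjusted p below 0.05, which is what called, rose and fell mean below, 46 of 46 fell on galactose and none rose, against 31.7% and 33.9% of all tested genes, and 45 of 46 fell on ethanol/glycerol, against 37.7%. In all 46 genes the glucose libraries did not overlap those on galactose, as in 71.1% of all genes, nor those on ethanol/glycerol, as in 82.2%. Scaling by total counts instead moved the median of all genes up by 0.12 on galactose and 0.19 on ethanol/glycerol, and the members' medians to -0.41 and -0.64.

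Among the modification particles, NHP2 had 446, 431 and 425 CPM in the glucose libraries of BY4741, 280, 266 and 290 CPM on galactose, and 185, 178 and 214 CPM on ethanol/glycerol. The 3 media did not overlap. It changed on ethanol/glycerol by a log2 of -1.17 (SE 0.05, adjusted p = 5.02e-17). NOP56 had 1239, 1125 and 1181 CPM on glucose, 827, 851 and 842 CPM on galactose, and 509, 498 and 601 CPM on ethanol/glycerol, again without overlap. The box C/D and box H/ACA genes had median log2 changes of -1.18 and -1.14 on ethanol/glycerol, and the 6 polymerase genes of -1.08. RPA34 had 223, 206 and 237 CPM on glucose and 104, 103 and 119 CPM on ethanol/glycerol, a log2 change of -1.03 (SE 0.07, adjusted p = 7.29e-13). The subunit genes of the polymerase ran from RPA190 at -0.83 to RPA12 at -1.31.

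The assembly factors fell less on ethanol/glycerol, by medians of 0.71 for the small-subunit genes, 0.76 for the large-subunit genes and 0.75 for the helicases; the differences between roles were not tested. NSR1 had 1160, 1096 and 1075 CPM on glucose, 722, 741 and 750 CPM on galactose, and 468, 493 and 702 CPM on ethanol/glycerol. The last of these libraries, which stood apart from its partners, lay close to the galactose level. DBP2, a helicase of nuclear RNA processing, had 1085, 1000 and 948 CPM on glucose and 344, 364 and 549 CPM on ethanol/glycerol, with the same library highest. The largest fall was that of NOP7, which forms a complex with ERB1 and YTM1 on the large-subunit precursor, from 934, 807 and 866 CPM to 316, 301 and 366 CPM. That is a log2 change of -1.41 (SE 0.06, adjusted p = 5.88e-17). SPB4, a large-subunit helicase, fell least on galactose, from 154, 148 and 147 CPM to 137, 131 and 128 CPM, a log2 change of -0.18 (SE 0.04, adjusted p = 0.000533).

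BMT6 was the gene called against the others. In BY4741 it had 27.9, 27.2 and 27.7 CPM on glucose, 15.8, 16 and 16.2 CPM on galactose, and 30.6, 29.4 and 37.2 CPM on ethanol/glycerol. It had the largest fall of all members on galactose, a log2 change of -0.79 (SE 0.10, adjusted p = 1.85e-07), and was the only member called higher on ethanol/glycerol, by 0.23 (SE 0.09, adjusted p = 0.0281), where 43.7% of all genes rose. That call was lost in 6 of 13 alternatives. Without the third ethanol/glycerol library the value was 0.12 (adjusted p = 0.258), and without the second or the third glucose library it was 0.22 and 0.23 (adjusted p = 0.0679 and 0.0534). DESeq2 gave 0.19 (adjusted p = 0.0804), and the call was also lost with RLE size factors and in a fit of the compared libraries alone. Against galactose the ethanol/glycerol level of BMT6 was higher by 1.02 (SE 0.10, adjusted p = 9.56e-10) and kept its call in all 13 alternatives, from 0.91 to 1.09. Between those carbon sources, 36 members fell (36% of all genes) and 2 rose (37.2%), the other being RRP9, the U3 particle protein, by 0.18 (adjusted p = 0.034). The call of RRP9 was lost without the third ethanol/glycerol library (0.14, adjusted p = 0.132) and without the second galactose library (0.12, adjusted p = 0.176). Without the third ethanol/glycerol library the median over all members was -0.92 against glucose and -0.38 against galactose, in place of -0.83 and -0.29. Against galactose 39 members then fell, in place of 36.

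**Figure D4:**
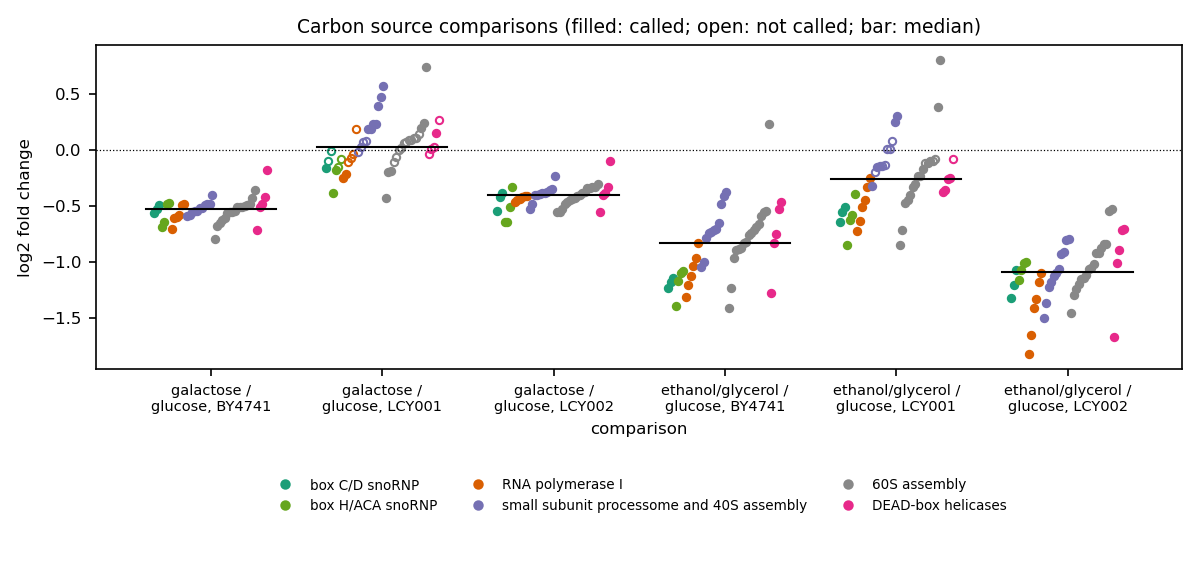
Log2 fold change between carbon sources (vertical axis) for each of the 46 genes in each strain; filled points passed the test, open points did not, colours are roles and bars are medians. In BY4741 and LCY002 the genes lie below 0 on galactose and ethanol/glycerol against glucose, except BMT6 on ethanol/glycerol in BY4741, whereas in LCY001 galactose against glucose they lie around 0 with a median of 0.03.

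The same carbon contrasts were made in the plasmid strains, and those of LCY001 differed from those of BY4741. In LCY001, 11 members rose on galactose (31.1% of all genes) and 8 fell (28.3%), with a median of 0.03. Of the 11, 7 were small-subunit genes, among them RRP9 at 0.57 (SE 0.07), the UtpA complex gene UTP15 at 0.47 (SE 0.08) and NSR1 at 0.23 (SE 0.09). The largest rise was that of RSA4, which is needed for a late large-subunit maturation step, from 57.6, 66.3 and 61 CPM on glucose to 110, 91.6 and 107 CPM on galactose, a log2 change of 0.74 (SE 0.10, adjusted p = 2.63e-06). The 8 that fell were NOP56, GAR1, NHP2, RPA43, RPA190, NOP7, NOP16 and NUG1, led by NOP7 at -0.43 (SE 0.06). With total counts as the scale the split was 23 higher and 3 lower (46% and 17.5% of all genes), and without the second LCY001 galactose library, which stood apart, 14 rose, 5 fell and the median was 0.08, the calls of NOP56, NOP16 and NUG1 being lost. In LCY002 all 46 fell on galactose (26.4% of all genes), by a median of 0.41, with GAR1, a box H/ACA core protein, and NOP10 at -0.64. The 8 genes named for LCY001 fell on galactose in all 3 strains, as did 11.9% of all genes, and none rose in all 3, as did 13.7%.

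On ethanol/glycerol against glucose, LCY001 had 31 members lower (37.9% of all genes), 4 higher (40.2%) and a median of -0.26. The 4 were BMT6 at 0.80 (SE 0.10), RSA4 at 0.38 (SE 0.11), RRP9 at 0.30 (SE 0.07) and UTP10, a UtpA gene, at 0.25 (SE 0.06). RRP9 had 78.8, 85.2 and 86.8 CPM on glucose and 108, 86.8 and 115 CPM on ethanol/glycerol, so that its groups touched at 86.8 CPM. BMT6 had 18.9, 22.2 and 22.5 CPM and 35.9, 32.4 and 42.7 CPM, without overlap. UTP10 had 308, 332 and 332 CPM and 403, 355 and 401 CPM. In LCY002 all 46 fell (40.4% of all genes), by a median of 1.08, the most being RPA12 at -1.82 (SE 0.12), DBP2 at -1.67 (SE 0.13) and RPA49, a subunit that works as a pair with RPA34, at -1.65. Over the 3 strains 31 members fell on ethanol/glycerol in each, as did 27.9% of all genes. Between ethanol/glycerol and galactose, 38 members fell in LCY001 (36.3% of all genes; 39 without its second galactose library) and 45 in LCY002 (40.4%), and BMT6 rose in LCY001 (0.73), where 35.3% of all genes rose. In all 3 strains 32 members fell between these carbon sources, as did 26.3% of all genes.

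On glucose, LCY001 had less of every member than BY4741. All 46 fell and none rose, against 27.8% and 27.6% of all tested genes, by a median of 0.43 on the log2 scale, and in all 46 the groups did not overlap, as in 61.4% of all genes. The largest fall was that of RSA4, from 123, 111 and 117 CPM in BY4741 to 57.6, 66.3 and 61 CPM in LCY001, a log2 change of -0.92 (SE 0.10, adjusted p = 1.83e-07). Its highest LCY001 library was well below its lowest BY4741 library. NSR1 went from 1160, 1096 and 1075 CPM to 726, 770 and 725 CPM, a log2 change of -0.58 (SE 0.09, adjusted p = 1.1e-05). The small-subunit genes had the lowest median of the roles, -0.55, and the helicases the highest, -0.35, with SPB4 least changed of all at -0.17 (SE 0.04, adjusted p = 0.00114). Other members stood between these: NHP2 changed by -0.52 (SE 0.05), BRX1 by -0.47 (SE 0.06), RPA34 by -0.45 (SE 0.07) and DBP2 by -0.60 (SE 0.13). All 46 calls held when any one library was left out.

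LCY002, compared with LCY001 on glucose, had 44 members higher (28.5% of all genes) and none lower (25.3%), with a median of 0.31, and in 44 the groups did not overlap (60.7% of all genes). RSA4 again led, with 112, 106 and 119 CPM in LCY002 against 57.6, 66.3 and 61 CPM in LCY001, a log2 change of 0.86 (SE 0.10, adjusted p = 4.34e-07). BMT6 followed the others here, with 35.7, 33.3 and 31.3 CPM against 18.9, 22.2 and 22.5 CPM (0.66, SE 0.10). The small-subunit genes had a median of 0.42 and all 11 rose. GAR1 had 308, 310 and 313 CPM against 280, 277 and 325 CPM, and NOP53, a late large-subunit factor, had 222, 195 and 190 CPM against 166, 179 and 211 CPM; both overlapped and were not called. With total counts as the scale, 32 members rose (15.8% of all genes) and the median was 0.21, while the median of all genes fell by 0.11. The calls of NOP56 (0.15, adjusted p = 0.0458) and NOP7 (0.16, adjusted p = 0.0319) were then lost, at adjusted p = 0.543 and 0.427.

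LCY002 and BY4741 were nearer to each other on glucose. There 12 members were lower in LCY002 (20.7% of all genes) and 1 was higher (17.7%), with a median of -0.11, and 24 members did not overlap (51.9% of all genes). NSR1 had 1131, 1092 and 1054 CPM in LCY002 and overlapped BY4741, as did RSA4. The largest fall was that of GAR1, from 418, 375 and 411 CPM to 308, 310 and 313 CPM, a log2 change of -0.37 (SE 0.06, adjusted p = 9.15e-06). BMT6 was the member called higher, at 0.28 (SE 0.10, adjusted p = 0.0237), a call that was lost in 5 of the 6 fits without one library, at adjusted p from 0.0503 to 0.109. Without the first BY4741 glucose library 4 members fell, without the second LCY002 library 7 and without the third 6. With total counts as the scale 27 fell, as did 31% of all genes. The comparisons of LCY001 with BY4741, LCY002 with LCY001 and LCY002 with BY4741 share their groups and are not separate evidence.

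**Figure D5:**
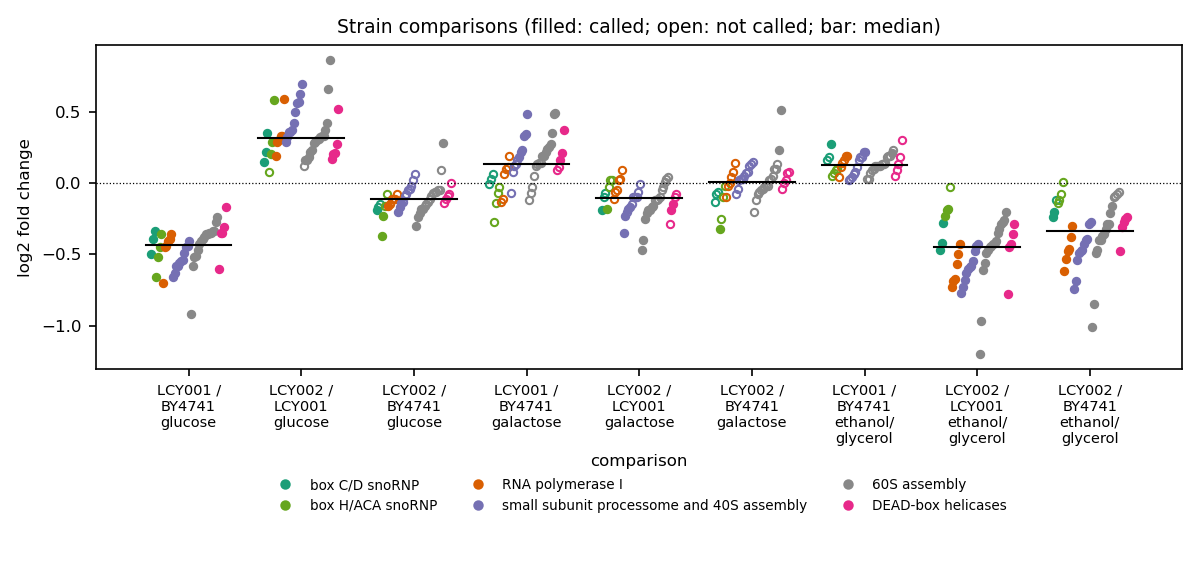
Log2 fold change between strains (vertical axis) for each of the 46 genes on each carbon source; filled points passed the test, open points did not, colours are roles and bars are medians. On glucose LCY001 lies below BY4741 at a median of -0.43 and LCY002 above LCY001 at 0.31, whereas on ethanol/glycerol LCY002 lies below LCY001 at -0.45.

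On galactose the strains came in another order. LCY001 had 18 members higher than BY4741 (20.7% of all genes) and none lower (18.2%), with a median of 0.13, and 28 members did not overlap (47.9% of all genes). Leaving out 1 library gave 12 to 25 members higher, the 25 without the second LCY001 library, which stood apart from its partners, and the median was then 0.16. The 18 were 6 small-subunit, 9 large-subunit and 3 helicase genes, and no gene of the modification particles or of polymerase I was called. RSA4 had 110, 91.6 and 107 CPM in LCY001 against 70.6, 73.6 and 74.6 CPM in BY4741 (0.49, SE 0.10, adjusted p = 0.000587). BMT6 had 24, 22 and 20.8 CPM against 15.8, 16 and 16.2 CPM (0.48, SE 0.10), and RRP9 129, 116 and 127 CPM against 91.6, 82 and 92.1 CPM (0.48, SE 0.07). In these genes the strains did not overlap. NSR1 was called at 0.23 (adjusted p = 0.0496), but not with a replicate block (adjusted p = 0.0573) or with RLE size factors (adjusted p = 0.0548). All 18 had been lower in LCY001 than in BY4741 on glucose, a pair of calls made for 7.71% of all genes.

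LCY002 had 16 members lower than LCY001 on galactose (18.1% of all genes) and none higher (20.2%), with a median of -0.11, and 18 members did not overlap (46.7% of all genes). The largest fall was that of NOP53, from 213, 199 and 203 CPM to 141, 153 and 150 CPM, a log2 change of -0.47 (SE 0.09, adjusted p = 0.000316), without overlap. No polymerase gene was among the 16. Without LCY001 library 1 or 3 or LCY002 library 1, 5 members fell, and without the second LCY002 library 7. With total counts as the scale 37 fell, as did 47.8% of all genes, whose median moved by -0.14. Without the second LCY001 library, which stood apart, 17 fell. LCY002 against BY4741 on galactose had 2 members higher (19.8% of all genes) and 1 lower (18%), with a median of 0.01, and 15 members did not overlap (50.8% of all genes). BMT6 had 21.6, 21.4 and 25.3 CPM in LCY002, 0.51 above BY4741 on the log2 scale (SE 0.10, adjusted p = 0.0003). NOP8, a large-subunit factor, had 98.1, 95.1 and 103 CPM against 84.4, 83.9 and 83.4 CPM (0.23, adjusted p = 0.00422), and GAR1 196, 200 and 201 CPM against 253, 239 and 253 CPM (-0.32, adjusted p = 8.53e-05). With total counts as the scale the split was 2 higher and 13 lower (13.2% and 35.9% of all genes).

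On ethanol/glycerol LCY002 was the low strain. Against LCY001, 45 members were lower (30.4% of all genes) and none higher (29.4%), with a median of -0.45, and 44 did not overlap (66.1% of all genes). BMT6 fell most, from 35.9, 32.4 and 42.7 CPM in LCY001 to 15.4, 15.9 and 17 CPM in LCY002, a log2 change of -1.2 (SE 0.10, adjusted p = 2.14e-10). RSA4 went from 82, 67 and 91.8 CPM to 42, 45 and 35.8 CPM (-0.97, SE 0.11). The 6 polymerase genes all fell, by a median of 0.62, and among them RPA135, the second-largest subunit, changed by -0.67 (SE 0.06) and RPA190 by -0.57 (SE 0.05). NOP10, the smallest box H/ACA protein, was the member not called, with 11.3, 12.8 and 10.4 CPM in LCY002 against 12.8, 11.1 and 11.5 CPM in LCY001. It lies on chromosome VIII from 241664 to 241840 in R64, 371 bases past ERG7, a gene of the array; the sources used here do not say whether reads were counted by strand.

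Against BY4741, LCY002 had 37 members lower on ethanol/glycerol (31.5% of all genes) and none higher (28.2%), with a median of -0.34, and 36 did not overlap (63.6% of all genes). No member was lower than BY4741 in LCY002 on all 3 carbon sources, nor higher on all 3, as were 5.53% and 8.1% of all genes. All 6 polymerase, 11 small-subunit and 5 helicase genes fell, and none of the 4 box H/ACA genes was called. The 9 members not called were NOP56, NHP2, GAR1, CBF5, NOP10, NOP7, NOP16, NOP53 and NUG1. BMT6 changed by -1.01 (SE 0.10) and RSA4 by -0.85 (SE 0.11). Without the third BY4741 library 33 were lower and the median was -0.23.

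LCY001 against BY4741 on ethanol/glycerol had 5 members higher (6.59% of all genes) and none lower (4.92%), with a median of 0.13, and in none of the 46 did the groups stand apart, as they did in 24.4% of all genes. The 5 were NOP58, a box C/D scaffold, UTP10, NOP7, RPA190 and RPA135, at 0.27, 0.22, 0.21, 0.19 and 0.19. NOP58 had 512, 420 and 500 CPM in LCY001 against 374, 361 and 450 CPM in BY4741. This comparison rests on single libraries. Without the third BY4741 library 31 members were higher and the median was 0.22, without the second LCY001 library 14, and without BY4741 library 1 or 2 or LCY001 library 1 or 3 none.

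The strain dependence of the carbon response was tested directly, as the difference between log2 changes. LCY002 was not compared with BY4741 in this way here. From glucose to galactose the change was higher in LCY001 than in BY4741 for 45 of 46 members (26.5% of all genes), by a median of 0.54, and the member not called was NOP10 at 0.39 (SE 0.19). From glucose to ethanol/glycerol it was higher for all 46 (22.7%), by a median of 0.57, or of 0.65 without the third BY4741 ethanol/glycerol library. Between LCY002 and LCY001 the signs were opposite: the change was lower in LCY002 for 42 members on galactose (23.8%), by a median of 0.41, and for all 46 on ethanol/glycerol (32.2%), by a median of 0.77. Each pair of these tests shares the glucose libraries of its strains, and all 4 share LCY001. Without the second LCY001 galactose library the counts on galactose were 46 against BY4741 and 42 against LCY002, with medians of 0.57 and, for LCY002 minus LCY001, -0.44. The largest single value was that of BMT6 between LCY002 and LCY001 on ethanol/glycerol, -1.86 (SE 0.14, adjusted p = 3.24e-11), next to RSA4 at -1.84 (SE 0.15, adjusted p = 9.65e-10).

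Other genes of the pathway, listed by role, moved with the members in most of these comparisons. In LCY001 against BY4741 on glucose all 39 tested genes of a further small-subunit list and all 52 of a further large-subunit list fell, with medians of -0.46 each. The same lists had 39 and 52 genes lower on ethanol/glycerol than on glucose in BY4741, with medians of -0.79 and -0.87. Between LCY002 and LCY001 on ethanol/glycerol 38 and 49 of them fell, and on glucose 35 and 47 rose. The further RNA polymerase I list, of 10 genes for other subunits and initiation factors, moved less uniformly: 6 fell in LCY001 against BY4741 on glucose, led by RRN3, the factor that makes the polymerase competent to initiate, at -0.77. All 10 tested RNA polymerase III genes and all 7 subunits shared between polymerases fell in that comparison.

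Cytosolic ribosomal protein genes, which are controlled in parallel with Ribi genes but in part by other factors, parted from the members on galactose. Of 135 tested, 117 were lower in LCY001 than in BY4741 on glucose (median -0.30). On galactose, where 18 members were higher, 73 ribosomal protein genes were lower and 1 was higher (median -0.17). Many of them are pairs of near-identical copies whose reads can be split by the counting. On ethanol/glycerol against glucose in BY4741 132 of the 135 fell, by a median of 0.94.

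Among 13 listed regulators of ribosome gene transcription, transcripts moved in both directions. In LCY001 against BY4741 on glucose IFH1, a coactivator of ribosomal protein genes, had the largest fall at -0.52 (SE 0.08, adjusted p = 7.95e-06). In LCY002 against LCY001 on glucose IFH1 had the opposite sign and the largest rise, at 0.60. In LCY002 against LCY001 on ethanol/glycerol TOD6, the repressor that binds PAC, had the largest fall (-0.60). TOD6 was also the largest fall from glucose to galactose in BY4741 (-0.58), and from glucose to ethanol/glycerol CRF1, a corepressor of ribosomal protein genes, rose by 0.77 and TPK3 fell by 0.77. What these transcripts have to do with the members' levels was not tested.

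Read against the promoters, members with PAC in its full spelling had a median log2 change of -0.74 from glucose to ethanol/glycerol in BY4741 (23 genes). Those without it had -0.96 (23 genes), but 19 of these hold the PAC core. The split also follows role: no box C/D or box H/ACA gene has full PAC. Those roles had the lowest medians in that contrast, -1.18 and -1.14, so element and role were not separated. For LCY001 against BY4741 on glucose the medians were -0.41 with PAC and -0.45 without. Members with RRPE had medians of -0.42, and those without it -0.44, in the latter comparison. For LCY002 on ethanol/glycerol the members with PAC had the lower medians. Against LCY001 these were -0.56 with PAC and -0.43 without, and against BY4741 -0.40 and -0.30. The ranges overlapped in each case. NOP1 and RPA190, whose windows hold both cores but neither full spelling, fell with the rest. BMT6 and RSA4, the members that led most of the strain comparisons, both hold PAC without RRPE in its full spelling. They differ in the RRPE core, which the window of RSA4 holds and that of BMT6 does not. The PAC match of BMT6 begins at position -32 from the start codon.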

How the data were processed

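The 27 libraries were RNA-seq of yeast RNA extracted with TRIzol, enriched by oligo(dT) and copied with random hexamer primers, as the labels' protocols state. The authors deposited, for each library, RSEM expected counts and FPKM per gene, listed by NCBI Gene ID. The tools are RSEM 1.2.8, Bowtie2 2.2.5 and HISAT2 2.1.0 on build R64, per the submitters' processing notes. The sources used here do not say whether counting used strand. Of the 5995 IDs, 5980 matched the R64 annotation used for symbols and coordinates. The members and all gene lists were chosen with earlier results of these data known.

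Expected counts were rounded to whole numbers. Genes passing edgeR's filterByExpr (5692 of 5995) were fitted with edgeR 4.0.16 (R 4.3.3, limma 3.58.1; TMM scaling, robust quasi-likelihood, 1 term per group over all 27 libraries), and p-values were adjusted by Benjamini-Hochberg over all tested genes of a comparison with a threshold of 0.05. The common dispersion was 0.00278. The SE is the log2 fold change divided by the square root of the F statistic. CPM use TMM-scaled totals (factors 0.905 to 1.08), shares use unscaled totals, and the deposited FPKM serve to compare levels between genes. Precision follows from totals of 14484847 to 16219263 counts per library. No pair of libraries within a group agreed within sampling noise: chi-square per degree of freedom ran from 3.39 to 20.4 over the 27 pairs.

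Alternatives were scaling by total counts, by RLE size factors or by TMM factors computed without HIS3 and the array genes, no filter on low counts, a replicate block, only the libraries compared, DESeq2 1.42.0, and each library left out in turn. The fits were tested on simulated data. Values per library are given for the member with the highest FPKM of each role, for the largest rise and fall among called members in LCY001 against BY4741 on glucose, LCY002 against LCY001 on each carbon source and both carbon contrasts in BY4741, and for members called against most others, with a few more chosen after their values were seen. Genes outside the members are named as the largest called rise or fall of their list, as the 5 most like NSR1 or RPA190, or as label checks; 1 regulator that this rule selects is not reported here.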

Additional observations from a re-analysis of the deposited data

Results flagged for a closer look

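The carbon response of the members differed between strains by a direct test of the difference of log2 fold changes. From glucose to galactose the change was higher in LCY001 than in BY4741 for 45 members (26.5% of all genes). The largest value was that of RSA4 at 1.42 (SE 0.15). From glucose to ethanol/glycerol it was higher in LCY001 for 46 members (22.7% of all genes), again led by RSA4 at 1.04 (SE 0.15). The change was lower in LCY002 than in LCY001 for 42 members on galactose (23.8% of all genes), led by RSA4 at -1.26 (SE 0.15). On ethanol/glycerol it was lower for 46 (32.2% of all genes), led by BMT6 at -1.86 (SE 0.14). These tests share the LCY001 libraries.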

How the results depend on the processing

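Of the 66 counts and medians over members, 1 changed sign: the median of LCY002 against BY4741 on galactose, 0.01 as reported, was -0.08 with total counts as the scale and -0.02 to 0.03 with a library left out. TMM factors without the array genes, no filter on low counts and a replicate block left all 66 close to their values. Total counts as the scale moves the median of all genes by up to 0.19, and the shares of all genes called move with it. The members called lower then became 27 in LCY002 against BY4741 on glucose (31% of all genes). On galactose they became 37 in LCY002 against LCY001 (47.8%) and 13 in LCY002 against BY4741 (35.9%). LCY001 had 23 higher (46%) and 3 lower (17.5%) on galactose against glucose. The medians under that scale were 0.21 for LCY002 against LCY001 on glucose and -0.25 for the same strains on galactose. On galactose against glucose they were -0.41 in BY4741, 0.14 in LCY001 and -0.33 in LCY002, on ethanol/glycerol against glucose -0.64, -0.14 and -0.91, and in LCY002 on ethanol/glycerol against galactose -0.58. A fit of only the libraries compared gave 2 members lower in LCY001 than BY4741 on galactose, 6 higher and 2 lower in LCY002 against BY4741 on galactose, and 0 higher in LCY001 than BY4741 on ethanol/glycerol. BMT6 on ethanol/glycerol against glucose in BY4741 was not called by that fit, with RLE size factors or by DESeq2, leaving 0 members higher. Beyond the scaling itself, the cause of these moves was not tested.

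Leaving out each library in turn gave 0 to 1 higher and 4 to 15 lower for LCY002 against BY4741 on glucose, 0 to 1 lower for LCY001 against BY4741 and 5 to 17 lower for LCY002 against LCY001 on galactose, and 0 to 31 higher for LCY001 against BY4741 on ethanol/glycerol. It gave 0 to 1 higher on ethanol/glycerol against glucose and 1 to 2 higher against galactose in BY4741, and 5 to 8 lower on galactose against glucose in LCY001. For single members, 254 of 7176 such fits lost a call and 86 gained one. Nothing in the labels says that replicate numbers pair the samples. Of 54 same-number correlations between groups 3 were above 0.1. The highest was 0.247, for the second LCY001 and BY4741 libraries on ethanol/glycerol. Such correlations share libraries and cannot exclude a pairing. The replicate block lost 1 and gained 1 of 1012 calls of single members. No member came near the limit of detection, the lowest count in a library being 155, for NOP10. Precision was lowest for that gene, whose SE from glucose to ethanol/glycerol in BY4741 was the largest of the members at 0.14.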
